A study of Sus scrofa with 12 samples.

Results

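Genes of fatty acid synthesis and desaturation were examined in newborn piglets of 2 genetic types, in the Biceps femoris, a muscle of the hind leg that forms part of the ham. The genes were taken by symbol from a list of 10, which holds ACLY, ACSS2, ME1, ACACA, FASN, ELOVL6, SCD, FADS2, SREBF1 and DGAT2. Of these, 8 symbols were matched to 1 identifier each among the 22861 genes of the expression table, and SREBF1 and DGAT2 were not analysed here. All 8 passed the filter on low values, as did 11875 genes in all. The 5 IBxDU animals were male piglets, crossbred Iberian x Duroc, at postnatal day 1. The 6 IB animals were male pure Iberian piglets of the same age. Piglets of both genetic types were born to Iberian sows on the same farm and differed in the breed of the boar, and since the sources used here give no litter for each piglet, the tests count littermates as independent. No animal was treated, and 1 more labelled animal of the IBxDU type was not analysed here.

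Each value is an RPKM, the reads on the exons of a gene scaled to the length of those exons and to the mapped reads of the library. This scaling does not correct for differences between animals in the make-up of their libraries. Comparisons between animals can therefore depend on a further scaling, and results under 2 such scalings are given below. The mapped reads per library that the RPKM values imply were 18518497 (IBxDU-402) to 33544359 (IBxDU-426), with medians of 21216006 in IBxDU and 24029658.5 in IB. These recovered counts are lower than the read totals and mapped shares in the paper would give. The paper describes paired reads and values scaled to fragments. Whether a recovered count stands for 1 read or 1 pair was not tested. Skeletal muscle markers were abundant in every animal. ACTA1, the alpha actin of skeletal muscle, was at 18623 to 42761 RPKM in IBxDU and at 25860 to 30819 RPKM in IB. The liver markers differed in level. ALB, the serum albumin of liver, stayed between 0.450 and 1.80 RPKM in IBxDU and between 0.306 and 0.905 RPKM in IB. TTR was at 0 to 0.207 RPKM in IBxDU and at 0 to 0.195 RPKM in IB. APOA1 was higher, at 27.1 to 50.6 RPKM in IBxDU and at 33.6 to 55.2 RPKM in IB. Where a gene is given animal by animal below, the IBxDU values stand in the order IBxDU-402, IBxDU-412, IBxDU-426, IBxDU-427 and IBxDU-429, and the IB values in the order IB-323, IB-330, IB-345, IB-431, IB-503 and IB-504.

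Fatty acids are built in the cytosol from acetyl-CoA, with reducing power from NADPH. ACLY makes acetyl-CoA from citrate and ACSS2 makes it from acetate, ME1 supplies NADPH, ACACA forms malonyl-CoA in the committed step, and FASN joins these units into palmitate. ELOVL6 lengthens palmitate to stearate, SCD places the first double bond that gives palmitoleate and oleate, and FADS2 starts the desaturation of polyunsaturated fatty acids. In the pig most of this synthesis takes place in adipose tissue, and fat cells also lie between the muscle fibres.

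The primers that the study designed for the qPCR of SCD and ELOVL6 are shown because these 2 transcripts spread most between the animals. They are written 5′ to 3′ in the order of the primer list, in lower case throughout.
SCD primer 1: tcccgacgtggctttttcttctc
SCD primer 2: cttcaccccagcaataccag
ELOVL6 primer 1: agaacacgtagcgactccgaagat
ELOVL6 primer 2: gacatgccgaccgccaaagataa

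None of the 8 genes passed the test between the genetic types after adjustment over all tested genes, and the values of every gene overlapped between IBxDU and IB. For SCD, animals of the same genetic type lay much further apart than the means of the types, 55.3-fold apart within IBxDU and 66.5-fold within IB, with a ratio of the means (IBxDU over IB) of 1.23. SCD and ELOVL6 were high in the same 4 animals, IBxDU-402 and IBxDU-429 on the crossbred side and IB-323 and IB-330 on the Iberian side. Over these 11 animals SCD spanned 68.8-fold and ELOVL6 33.0-fold, FASN 15.6-fold, ME1 12.7-fold, ACACA 5.14-fold and ACLY 3.98-fold. ACSS2 spanned 2.56-fold and FADS2 2.34-fold.

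**Figure D1:**
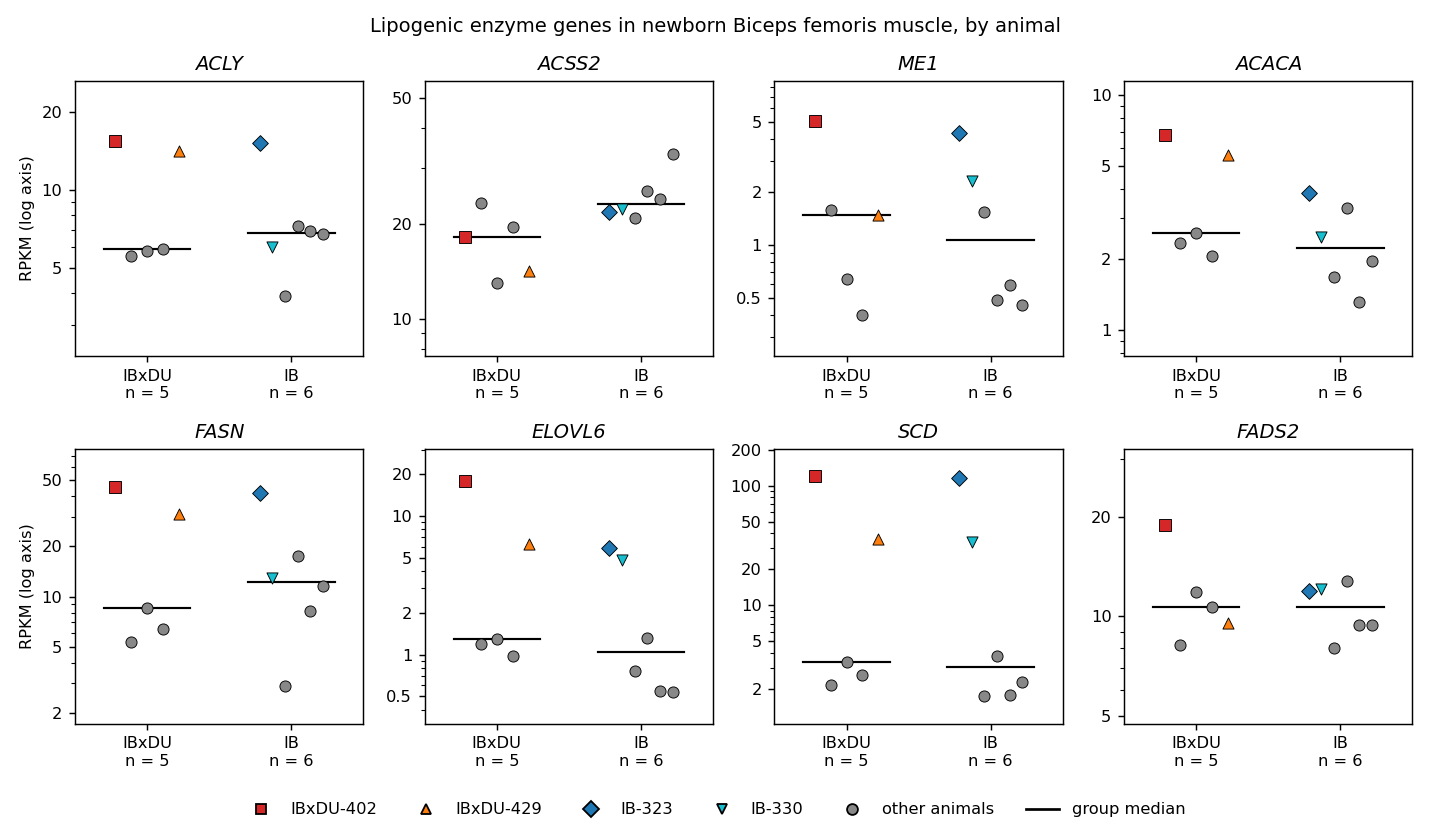
RPKM of the 8 enzyme genes on log axes, with 5 IBxDU animals left of 6 IB animals in each panel, 1 point per animal and a line at the group median. The 4 coloured animals sit far above the others for SCD (33.7 to 119 RPKM, the others 1.73 to 3.79 RPKM) and ELOVL6, 3 of them do so for FASN and ACLY, and the ACSS2 panel shows another order.

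The genetic types were compared with limma on log2(RPKM + 0.1), IBxDU minus IB, with Benjamini-Hochberg adjustment of the p-values over all tested genes. At an adjusted p under 0.05, 0 of the 8 genes passed, with limma as well as with limma-voom on the reads recovered from the RPKM values, and 0.0168% of all tested genes passed with limma. At an unadjusted p under 0.05, 1 of the 8 genes (ACSS2) was lower in IBxDU, where 2.02% of all tested genes were, and 0 were higher, where 6% were. At an unadjusted p of 0.01 or less with a fold of 1.5 or more, 0 of the 8 passed, and 1.51% of all tested genes did. The ranges of the genetic types were apart for 0 of the 8 genes and for 1.04% of all tested genes. Log2 fold changes were above 0 for 7 of the 8 genes and for 66.9% of all tested genes, with medians of 0.22 and 0.13.

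The median of all tested genes depended on the scaling, being 0.13 with the RPKM values as deposited. It was 0.02 when the animals were scaled to a common upper quartile and 0.01 with a median-of-ratios scaling. The split of genes at an unadjusted p under 0.05 moved with it, with 713 higher and 240 lower in IBxDU as deposited, 405 higher and 479 lower after the upper quartile scaling, and 353 higher and 532 lower after the median-of-ratios scaling. Of the 8 enzyme genes, 7 were above 0 after the upper quartile scaling (median 0.11) and 6 after the median-of-ratios scaling (median 0.10). Without IBxDU-402, 3 of the 8 (ELOVL6, ACACA and ACLY) were above 0, and the median of the 8 was -0.17, with a median of 0.10 over all tested genes. That animal held the highest value of every gene but ACSS2, so leaving it out had to lower the IBxDU side of those genes.

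**Figure D2:**
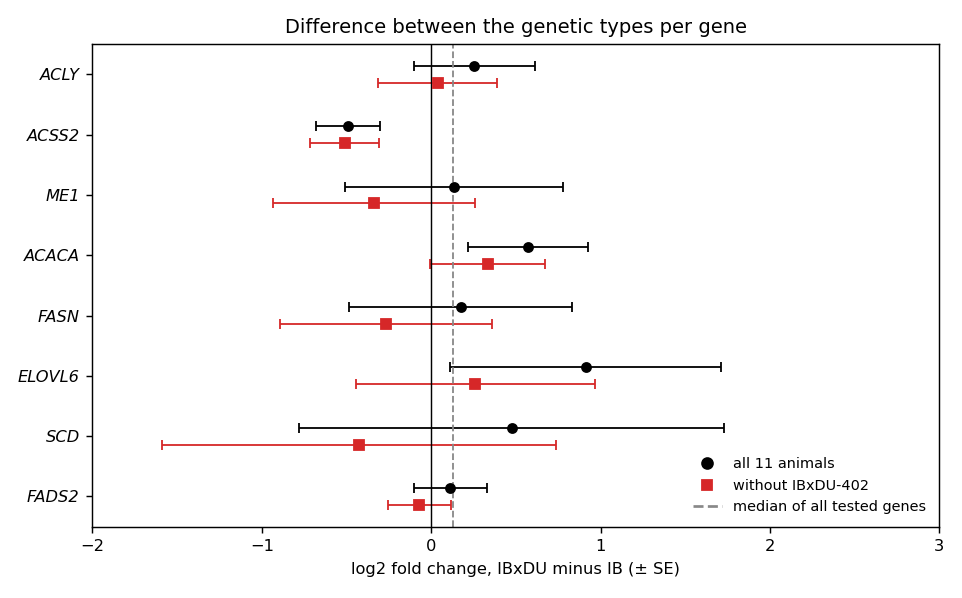
Log2 fold change of each gene, IBxDU minus IB, with bars of ± 1 SE, for all 11 animals (black circles) and without IBxDU-402 (red squares). The dashed line is the median of all tested genes, 0.13, and ACSS2 is the gene whose bars lie wholly below 0 in both fits.

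ACLY, the ATP citrate lyase that releases acetyl-CoA from citrate, was at 15.5, 5.57, 5.83, 5.91 and 14.2 RPKM in the 5 IBxDU animals, against 15.2, 6.00, 3.89, 7.28, 6.94 and 6.74 RPKM in the 6 IB animals. IBxDU-402, IBxDU-429 and IB-323 stood at or above 14.2 RPKM and the other 8 animals at or below 7.28 RPKM. The means were 9.39 ± 4.98 RPKM in IBxDU (SD, n = 5) and 7.68 ± 3.88 RPKM in IB (SD, n = 6), a log2 fold change of 0.26 ± 0.36 (SE, limma adjusted p = 0.846, exact two-sided permutation p = 0.589). It was 0.04 without IBxDU-402, 0.07 without IBxDU-429, 0.09 without IB-345 and 0.48 without IB-323.

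ACSS2, the synthetase that charges acetate to acetyl-CoA, was the single gene of the 8 with a log2 fold change below 0 over all 11 animals. It was at 18.1, 23.2, 13.0, 19.5 and 14.2 RPKM in the 5 IBxDU animals, against 21.8, 22.2, 20.8, 25.4, 23.9 and 33.2 RPKM in the 6 IB animals. Of the 5 IBxDU animals, 4 were below every IB animal, and IBxDU-412 lay within the IB range. The means were 17.6 ± 4.15 RPKM in IBxDU (SD, n = 5) and 24.6 ± 4.56 RPKM in IB (SD, n = 6). The log2 fold change was -0.49 ± 0.19 (SE, limma unadjusted p = 0.0197, adjusted p = 0.562), which is -0.62 relative to the median of all tested genes, and the exact two-sided permutation p was 0.0216, where 0.00433 is the smallest that 462 relabelings allow. The limma unadjusted p was 0.0601 without IBxDU-426 and 0.0513 without IB-504.

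After the upper quartile scaling, which divides the values of an animal by a factor from its upper quartile, ACSS2 was at 11.8 to 22.6 scaled RPKM in IBxDU and at 22.7 to 33.9 in IB. The groups were then just apart, as were those of 0.837% of the genes tested on that scale. The median-of-ratios scaling gave 11.4 to 21.3 in IBxDU and 22.1 to 34.4 in IB, again apart, as for 0.829% of genes. On these scales the log2 fold changes were -0.60 ± 0.19 and -0.61 ± 0.19 (SE), past an unadjusted p of 0.01 and a fold of 1.5 like 1.67% and 1.71% of the genes tested, with limma adjusted p of 0.467 and 0.455. ACSS2 did not pass the adjusted threshold on any of these 3 scales.

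ME1, the cytosolic malic enzyme, was the lowest of the 8 genes by mean. It was at 5.06, 1.59, 0.638, 0.397 and 1.49 RPKM in the 5 IBxDU animals, against 4.35, 2.33, 1.55, 0.487, 0.596 and 0.453 RPKM in the 6 IB animals. IBxDU-402 and IB-323 were highest, and animals of both types lay under 1 RPKM. The means were 1.83 ± 1.87 RPKM in IBxDU (SD, n = 5) and 1.63 ± 1.53 RPKM in IB (SD, n = 6), and the log2 fold change was 0.13 ± 0.65 (SE, limma adjusted p = 0.957, exact two-sided permutation p = 0.883).

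ACACA, the acetyl-CoA carboxylase of lipogenic tissue, was at 6.78, 2.36, 2.58, 2.07 and 5.55 RPKM in the 5 IBxDU animals, against 3.85, 2.49, 1.68, 3.30, 1.32 and 1.97 RPKM in the 6 IB animals. IBxDU-402 and IBxDU-429 exceeded every IB animal, and the other 3 IBxDU animals lay among the IB animals. The means were 3.87 ± 2.15 RPKM in IBxDU (SD, n = 5) and 2.44 ± 0.978 RPKM in IB (SD, n = 6). With a log2 fold change of 0.57 ± 0.36 (SE), the gene had a limma unadjusted p of 0.130, an adjusted p of 0.657 and an exact two-sided permutation p of 0.190. The log2 fold change was 0.33 without IBxDU-402.

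FASN, the fatty acid synthase, was at 45.5, 5.31, 8.58, 6.34 and 31.5 RPKM in the 5 IBxDU animals, against 42.2, 13.0, 2.91, 17.4, 8.18 and 11.6 RPKM in the 6 IB animals. The same 3 animals as for ACLY were highest. The mean was higher in IBxDU, 19.4 ± 18.1 RPKM (SD, n = 5), against 15.9 ± 13.8 RPKM in IB (SD, n = 6), whereas the median was lower in IBxDU, 8.58 RPKM, against 12.3 RPKM in IB. The log2 fold change was 0.17 ± 0.66 (SE, limma adjusted p = 0.945, exact two-sided permutation p = 0.831), and it was -0.27 without IBxDU-402, -0.13 without IBxDU-429 and -0.22 without IB-345.

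ELOVL6, the elongase of saturated and monounsaturated chains, was at 17.8, 1.19, 1.31, 0.972 and 6.26 RPKM in the 5 IBxDU animals, against 5.83, 4.78, 0.760, 1.33, 0.549 and 0.540 RPKM in the 6 IB animals. The step between the fourth and the fifth animal, IB-330 and IB-431, was the widest in the order of the animals. The means were 5.51 ± 7.23 RPKM in IBxDU (SD, n = 5) and 2.30 ± 2.37 RPKM in IB (SD, n = 6). The log2 fold change, 0.91 ± 0.80 (SE), did not pass (limma adjusted p = 0.751, exact two-sided permutation p = 0.364). It was the largest of the 8 over all 11 animals, but without IBxDU-402 it was 0.26, below that of ACACA (0.33).

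The ELOVL6 values rest on few reads, because the exon length that the RPKM values imply for its gene model was 388 bases. Between 4 (IB-504) and 128 (IBxDU-402) reads lay on it per animal. The exact 95% Poisson interval was 14.9 to 21.2 RPKM in IBxDU-402 and 0.147 to 1.38 RPKM in IB-504, which covers counting error only. The order of the 7 lower animals is therefore within counting error, whereas the SCD model of 6320 bases held 260 to 17713 reads per animal.

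SCD, the stearoyl-CoA desaturase, was at 119, 2.16, 3.36, 2.63 and 35.8 RPKM in the 5 IBxDU animals, against 115, 33.7, 1.73, 3.79, 1.76 and 2.28 RPKM in the 6 IB animals. No animal lay between 3.79 RPKM in IB-431 and 33.7 RPKM in IB-330, a step of 3.12 on the log2 scale. Each genetic type had 1 animal above 100 RPKM, 1 near 35 RPKM and the rest under 4 RPKM. The means were 32.6 ± 50.5 RPKM in IBxDU (SD, n = 5) and 26.4 ± 45.3 RPKM in IB (SD, n = 6), with medians of 3.36 and 3.03 RPKM in these types.

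The log2 fold change of SCD was 0.48 ± 1.25 (SE, limma adjusted p = 0.917, exact two-sided permutation p = 0.680). It ran from -0.42 without IBxDU-402 to 1.28 without IB-323. The SE was larger than the log2 fold change itself. The smallest difference in SCD that these numbers of animals could detect was not computed, so the lack of a call does not show that the types are equal.

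FADS2, the delta-6 desaturase, was at 18.9, 8.22, 11.8, 10.6 and 9.54 RPKM in the 5 IBxDU animals, against 11.9, 12.1, 8.05, 12.8, 9.40 and 9.41 RPKM in the 6 IB animals. Apart from IBxDU-402 all animals lay between 8.05 and 12.8 RPKM. The means were 11.8 ± 4.16 RPKM in IBxDU (SD, n = 5) and 10.6 ± 1.90 RPKM in IB (SD, n = 6), with a log2 fold change of 0.11 ± 0.22 (SE, limma adjusted p = 0.888, exact two-sided permutation p = 0.628).

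By the mean over all 11 animals the order of the levels was SCD (29.3 RPKM), ACSS2 (21.4 RPKM), FASN (17.5 RPKM), FADS2 (11.2 RPKM), ACLY (8.46 RPKM), ELOVL6 (3.76 RPKM), ACACA (3.09 RPKM) and ME1 (1.72 RPKM). In all 7 neighbouring pairs of this order the means differed by less than the larger SD of the pair. By the median the order changed, with ACSS2 first at 21.8 RPKM and SCD at 3.36 RPKM, below FASN (11.6 RPKM), FADS2 (10.6 RPKM) and ACLY (6.74 RPKM). SCD was more abundant than FASN in IBxDU-402, IBxDU-429, IB-323 and IB-330 and less abundant in each of the other 7 animals.

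The spread within the genetic types was wide for most of these genes. The residual SD of log2(RPKM + 0.1), which measures the spread between animals of 1 type, had a median of 0.43 over all tested genes and an upper quartile of 0.60. Of the 8 enzyme genes, 6 were above that quartile and 4 were above the 95th percentile of 0.99. SCD, at 2.55, ranked 16th of the 11875 genes, ELOVL6 was at 1.60, FASN at 1.32 and ME1 at 1.27, while ACACA (0.66) and ACLY (0.68) were moderately wide. ACSS2 (0.29) and FADS2 (0.36) were below the median of all tested genes.

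**Figure D3:**
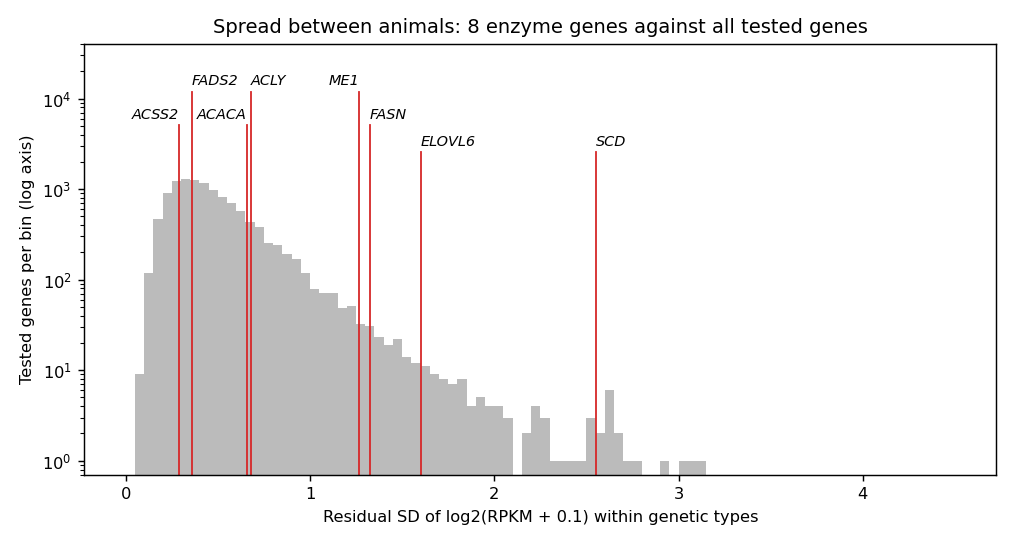
Number of tested genes (log axis) by the residual SD of log2(RPKM + 0.1) within the genetic types, with the 8 enzyme genes as red lines. SCD at 2.55 lies far in the right tail, and ACSS2 and FADS2 lie near the peak of the distribution.

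The genes shared their high animals. The 4 highest animals for SCD were also the 4 highest for ELOVL6, as they were for 2.45% of all tested genes. At least 3 of them were among the 4 highest animals for FASN, ACACA, ACLY, ME1 and FADS2, as for 21.7% of all tested genes, and 0 of them were for ACSS2, where IB-504, IB-431, IB-503 and IBxDU-412 were highest. All these genes were read from the same 11 libraries, so the shared order is a description of these animals.

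Pearson r and Spearman rho were computed for all 28 pairs of the 8 genes. The adjustment was over all 28 pairs, including those whose r is not given below. Small p-values of such pairs lower the adjusted p of the others, so no pair is called from it. For SCD, ELOVL6, FASN, ACLY and ME1 the animals fell into separate high and low sets, taken as a step of more than 0.8 on the log2 scale, a limit chosen after the values were seen, and no correlation over all animals is given for pairs that hold one of these. Among the 3 other pairs, r was 0.67 for ACACA and FADS2 (permutation p = 0.0238, adjusted over 28 pairs 0.0417, rho = 0.74 with p = 0.0133 and adjusted p = 0.0339), 0.69 without the 2 animals farthest from the ACACA median, 0.67 within the genetic types and 0.47 after the upper quartile scaling. ACSS2 had r = -0.44 with ACACA (permutation p = 0.178, adjusted p = 0.237, rho = -0.47 with p = 0.147, and r = -0.14 without IBxDU-402 and IBxDU-429) and -0.22 with FADS2 (permutation p = 0.508, adjusted p = 0.548, rho = -0.17 with p = 0.616, and r = -0.41 without IBxDU-426 and IBxDU-429).

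Among the 7 animals below the step in SCD, the 10 pairs of SCD, ELOVL6, FASN, ACACA and ACLY were examined with exact permutation tests. Pairs with ME1, ACSS2 or FADS2 were not examined in these animals, which were picked by their SCD values. The adjustment is over these 10 pairs only, and 3 passed an adjusted p of 0.05 by r and 0 by rho. FASN and ACLY had r = 0.91 in these animals (n = 7, exact p = 0.00258, adjusted over the 10 pairs 0.0258, rho = 0.82 with exact p = 0.0341 and adjusted p = 0.114), 0.72 without IB-345 and IB-431, and 0.92 when centred within the genetic types. SCD and ACACA had r = 0.90 (n = 7, exact p = 0.00615, adjusted 0.0308, rho = 0.86 with exact p = 0.0238 and adjusted p = 0.114), 0.73 without IBxDU-426 and IB-431, and 0.89 when centred. ELOVL6 and ACACA had r = 0.84 (n = 7, exact p = 0.0149, adjusted 0.0496, rho = 0.89 with exact p = 0.0123 and adjusted p = 0.114), 0.93 without IB-503 and IB-504, and 0.86 when centred, where the pair no longer passed (adjusted exact p = 0.0648). After the upper quartile scaling, the adjusted exact p of these 3 pairs was 0.0784, 0.0784 and 0.0913 in that order, so none passed.

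For SCD and ELOVL6 themselves r was 0.74 in the 7 lower animals (n = 7, exact p = 0.0687, adjusted 0.172, rho = 0.68 with exact p = 0.110), and for SCD and FASN it was 0.69 (n = 7, exact p = 0.0879, adjusted 0.176, rho = 0.75 with exact p = 0.0663). Without IBxDU-426 and IB-431 these r values were 0.39 and 0.40. The counting error of ELOVL6 in these animals, with at most 17 reads each, enters both of its relations.

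Likeness to SCD, FASN and the mean of the 8 genes was ranked by the Pearson r of log2(RPKM + 0.1) over the 11 animals among all tested genes with a symbol, and only the order is given because of the high and low sets. Near the top for SCD were PGLYRP2, ELOVL6, HSD17B7 and TKT. PGLYRP2, a peptidoglycan amidase known from liver, was at 8.50 RPKM in IBxDU-402 and 8.46 RPKM in IB-323, at 2.23 RPKM in IB-330 and 0.736 RPKM in IBxDU-429, and at 0.111 RPKM or less in the others. HSD17B7 takes part in cholesterol synthesis, and TKT belongs to the pentose phosphate pathway, a source of NADPH. For FASN the most similar genes were ACLY, APRT, SDF4, NELFA and FAH.

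For the mean of the 8 standardised genes the most similar were among others CCDC159, PGD, PGLYRP2 and AGPAT1. This mean was highest in IBxDU-402 (1.47) and IB-323 (1.01), followed by IBxDU-429 (0.49) and IB-330 (0.30), and lowest in IB-345 (-0.84). The order is a description of 11 animals whose libraries all these genes share.

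Of the genes listed for the supply of acetyl-CoA and NADPH, 11 of 13 symbols were matched and tested, and 0 passed at an adjusted or an unadjusted p of 0.05. The list also holds MCAT and OXSM, genes of mitochondrial fatty acid synthesis, which the counts and medians include. Over all tested genes, 66.9% of the log2 fold changes were above 0 as deposited. At a limma unadjusted p under 0.05, 6% of them were higher and 2.02% lower in IBxDU. These shares stand beside the counts of this list and of the lists below. Their log2 fold changes were above 0 for 8 of 11 (7 after the upper quartile and 6 after the median-of-ratios scaling), with a median of 0.26 beside 0.13 for all tested genes, and -0.08 without IBxDU-402. PGD, a dehydrogenase of the pentose phosphate pathway, was at 30.1, 10.3, 10.6, 8.95 and 16.0 RPKM in the 5 IBxDU animals, against 17.2, 14.3, 5.87, 10.04, 8.09 and 9.33 RPKM in the 6 IB animals. Its log2 fold change was 0.42 ± 0.33 (SE, limma adjusted p = 0.724), and that of IDH1, the cytosolic isocitrate dehydrogenase, was 0.67 ± 0.60 (SE, limma adjusted p = 0.758).

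On the other side, the mitochondrial fatty acid synthesis genes OXSM and MCAT had log2 fold changes of -0.40 ± 0.19 (SE, limma adjusted p = 0.612) and -0.07 ± 0.19 (SE, limma adjusted p = 0.923). In 6 of the 11 genes of this list, PGD, IDH1, TKT, PC and SLC25A1 among them, the 4 highest animals were those of SCD. TKT, the transketolase, was at 60.0, 12.3, 13.7, 8.41 and 24.4 RPKM in the 5 IBxDU animals, against 28.5, 27.7, 7.34, 9.54, 10.3 and 9.35 RPKM in the 6 IB animals. SLC25A1, which carries citrate out of the mitochondrion, was highest in IBxDU-402 (31.4 RPKM) and IB-323 (25.5 RPKM).

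Of 14 other genes of elongation and desaturation, 8 were matched and 4 tested. Their log2 fold changes were above 0 in 4 of 4 (3 of 4 after either scaling or without IBxDU-402), where 66.9% of all tested genes were. The median was 0.48, beside 0.13 for all tested genes, and 0.27 without IBxDU-402. HACD3, a dehydratase of the elongation cycle, was the 1 gene of the 4 at an unadjusted p under 0.05, and higher in IBxDU, where 6% of all tested genes were. It was at 8.31, 7.82, 7.23, 6.60 and 12.4 RPKM in the 5 IBxDU animals, against 4.97, 7.66, 4.97, 5.96, 5.02 and 5.63 RPKM in the 6 IB animals, and only IB-330 reached the crossbred range. The log2 fold change was 0.55 ± 0.20 (SE, limma unadjusted p = 0.0146, adjusted p = 0.550), and FADS1, the delta-5 desaturase, followed with 0.43 ± 0.27 (SE, limma adjusted p = 0.665). ELOVL2, ELOVL3, ELOVL4 and SCD5 were below the filter.

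Of 6 acyl-CoA synthetases, which join acids to coenzyme A, 5 were matched and 4 tested, with 0 at an unadjusted p under 0.05. Their log2 fold changes were above 0 in 4 of 4 on all 3 scales. The medians were 0.25 as deposited, 0.15 and 0.13 after the scalings and 0.38 without IBxDU-402. ACSF3 and ACSL1 had the smallest p, with 0.38 ± 0.20 (SE, limma adjusted p = 0.619) and 0.25 ± 0.20 (SE, limma adjusted p = 0.725). ACSL1 was at 216 to 533 RPKM in IBxDU and at 239 to 322 RPKM in IB, lowest in IBxDU-402 and highest in IBxDU-429, and 0 of these 4 genes shared the high animals of SCD.

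For glycerolipid assembly, which joins fatty acids to glycerol, 10 of 16 symbols were matched and tested, 0 passed at an unadjusted p under 0.05, 7 of 10 log2 fold changes were above 0 (4 of 10 after either scaling) and their median was 0.09, and -0.02 and -0.03 after the upper quartile and the median-of-ratios scaling and 0.03 without IBxDU-402. GPAT3 (0.26 ± 0.22, SE) and AGPAT1 (0.30 ± 0.33, SE) had the smallest p among those above 0, and DGAT1 (-0.29 ± 0.23, SE) and AGPAT5 (-0.29 ± 0.26, SE) among those below. AGPAT1, an acyltransferase of phosphatidic acid synthesis, was the single gene of this list with the 4 high animals of SCD as its own highest, at 37.4 RPKM in IBxDU-402, 18.4 RPKM in IBxDU-429, 20.5 RPKM in IB-323 and 16.6 RPKM in IB-330. GPD1, the glycerol-3-phosphate dehydrogenase, was high in IBxDU-402 (452 RPKM), IB-323 (521 RPKM) and IB-330 (430 RPKM) and lower in IBxDU-429 (98.4 RPKM).

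Among the genes that control lipogenesis, 11 of 18 symbols were matched and tested, 0 passed at an unadjusted p under 0.05, 7 of 11 log2 fold changes were above 0 (5 of 11 after either scaling) and their median was 0.08, and -0.02 and -0.04 after the 2 scalings and 0.01 without IBxDU-402. PRKAA1, a catalytic subunit of AMP-activated kinase, and SCAP, the escort of the SREBP factors, had the smallest p above 0 (0.25 ± 0.20, SE, each), and MID1IP1, a partner of acetyl-CoA carboxylase (-0.42 ± 0.33, SE), and NR1H2, a liver X receptor (-0.06 ± 0.16, SE), below 0. INSIG1, which retains SCAP in the endoplasmic reticulum, was the single gene of this list with the 4 highest animals of SCD, at 14.5 RPKM in IBxDU-402, 10.4 RPKM in IBxDU-429, 24.9 RPKM in IB-323 and 15.1 RPKM in IB-330. USF2, a transcription factor of lipogenic promoters, was at 54.4 to 68.0 RPKM in IBxDU and 48.5 to 69.1 RPKM in IB.

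**Figure D4:**
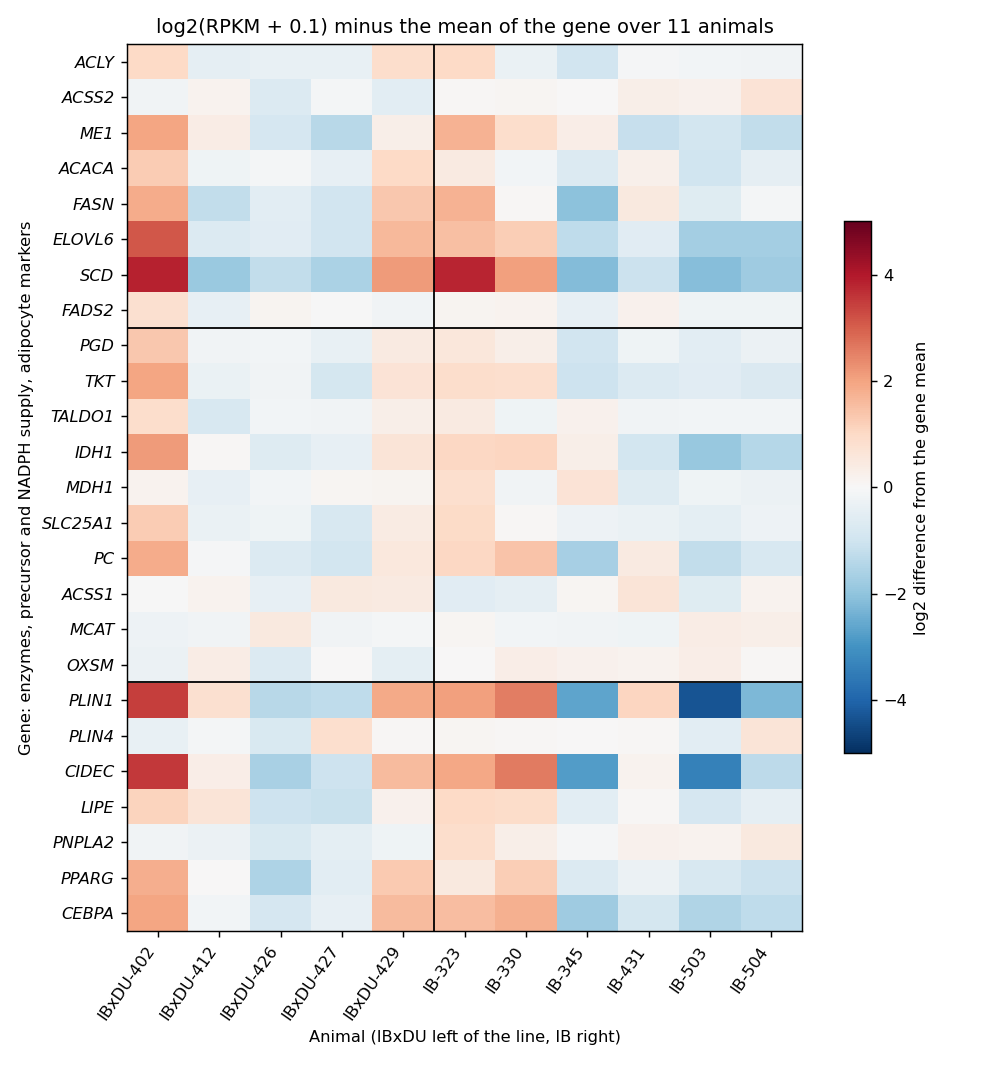
Difference of log2(RPKM + 0.1) from the mean of the gene over 11 animals (red higher, blue lower). IBxDU animals stand left of the vertical line and IB animals right of it. From top to bottom are the enzyme genes, 10 genes of the supply list (MCAT and OXSM among them) and the adipocyte markers. The columns of IBxDU-402, IBxDU-429, IB-323 and IB-330 are red for SCD, ELOVL6, TKT, IDH1, PLIN1, CIDEC and CEBPA, whereas ACSS2, MCAT, OXSM and PLIN4 are paler.

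Several adipocyte markers were highest in the same animals. Of 12 markers, 7 were matched and tested, and their summed level was 80.8 to 239 RPKM in IBxDU and 126 to 262 RPKM in IB. In every animal PNPLA2, which muscle also expresses, was the largest part of this sum. The sum therefore does not follow PLIN1, being 182 RPKM in IB-504 and 163 RPKM in IBxDU-429, where PLIN1 was at 0.961 and 19.1 RPKM. Over the 11 animals PLIN1 alone spanned 363-fold. None of the 7 was at 0 in any animal, and 4 of the 7 log2 fold changes were above 0 on all 3 scales, with a median of 0.40, and -0.0016 without IBxDU-402. PLIN1, the coat protein of the adipocyte lipid droplet, was at 55.9, 8.78, 1.85, 2.03 and 19.1 RPKM in the 5 IBxDU animals, against 21.1, 30.1, 0.720, 10.8, 0.154 and 0.961 RPKM in the 6 IB animals, with a log2 fold change of 1.29 ± 1.25 (SE, limma adjusted p = 0.777). PLIN1, CIDEC, PPARG and CEBPA, 4 of the 7, had the same 4 highest animals as SCD, and their part in the enzyme levels was not tested. In tissue RNA, fewer fat cells and less RNA per fat cell cannot be told apart.

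SCD and PLIN1 did not run in parallel throughout. IBxDU-412 and IB-431 had PLIN1 at 8.78 and 10.8 RPKM, above the other 5 low animals, while SCD was at 2.16 and 3.79 RPKM, within their range or just above it. IB-323 had more SCD than IB-330 (115 and 33.7 RPKM) with less PLIN1 (21.1 and 30.1 RPKM). The remaining markers differed from one another. LIPE was highest in IBxDU-402 (28.6 RPKM), IB-323 (26.0 RPKM) and IB-330 (24.8 RPKM), but IBxDU-429 (15.2 RPKM) lay below IBxDU-412 (20.7 RPKM). PLIN4 was highest in IBxDU-427 (53.3 RPKM). PNPLA2, the adipose triglyceride lipase that muscle also expresses, was at 52.0 to 78.1 RPKM in IBxDU and 83.3 to 161 RPKM in IB (log2 fold change -0.71 ± 0.18, SE, limma unadjusted p = 0.00157, adjusted p = 0.405).

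**Figure D5:**
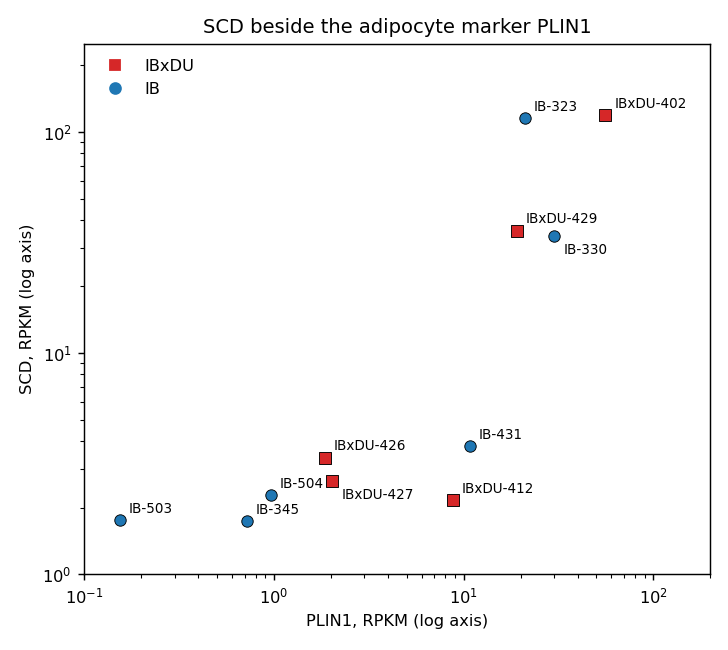
SCD against PLIN1 in RPKM, both on log axes, 1 point per animal, with IBxDU as red squares and IB as blue circles. The 4 animals above 30 RPKM of SCD are also the 4 highest in PLIN1, and IBxDU-412 and IB-431 combine PLIN1 near 10 RPKM with SCD under 4 RPKM.

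IBxDU-402 stood apart in other cell type markers too. The 4 matched macrophage markers of 5 summed to 11.2 to 149 RPKM in IBxDU and 19.7 to 54.4 RPKM in IB, with the highest sum in IBxDU-402, where MARCO was at 29.7 RPKM against 0.793 RPKM or less in every other animal and 0 in IB-504. The 4 matched fibroblast and adipose progenitor markers of 5 summed to 484 to 3720 RPKM in IBxDU, again highest in IBxDU-402, and to 742 to 2008 RPKM in IB, and PDGFRA was listed at 0 in all 11 animals. The 6 matched muscle fibre markers of 10 summed to 30093 to 67875 RPKM in IBxDU, lowest in IBxDU-429, and 42207 to 53949 RPKM in IB. Endothelium (2 of 4 matched, 65.7 to 118 RPKM in IBxDU, 61.2 to 97.0 RPKM in IB), liver (3 of 3, 27.6 to 51.4 RPKM in IBxDU, 34.0 to 55.6 RPKM in IB) and nerve sheath (1 of 4, 22.4 to 59.7 RPKM in IBxDU, 21.9 to 72.1 RPKM in IB) overlapped between the types, and the part of any of these lists in the enzyme levels was not tested.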

How the data were processed

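RNA of Biceps femoris was sequenced as paired reads, and the authors mapped them to Sscrofa10.2 in CLC Bio Genomic Workbench 7.0. The authors deposited 1 RPKM value per gene and animal, for 11 of 12 labelled animals, beside columns of their own comparison that hold a p-value and a fold change and were not used. A design for counts was set aside because the table held RPKM. Whole reads could be recovered from the RPKM values of 16953 of 16953 genes above 0 (100%, tolerance 0.02 reads), and with them the mapped reads and exon lengths.

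Genes whose mean exceeded 0.5 RPKM in 1 or both types entered limma 3.58.1 (R 4.3.3, trended empirical Bayes) on log2(RPKM + 0.1), a scale that understates changes of low genes. Thresholds were an adjusted p of 0.05 and, after the study's methods, an unadjusted p of 0.01 with a fold of 1.5. Permutation tests used all 462 relabelings, all pairings of 7 animals, or 100000 resamples (Python 3.11.15, numpy 2.4.6, scipy 1.17.1). Symbols came from a gene table for 11450 identifiers. The 10 genes and the lists were chosen with earlier results of these data known. Named genes are the 8 found, the 2 of each list with the smallest p per direction, the 5 most similar to SCD, FASN and the mean of the 8, and cell type markers. Others (PC, SLC25A1, GPD1, INSIG1, USF2) were added after their values were seen. SREBF1, also named by that rule, was not analysed, and 1 further gene so named is not reported here. The steps were tested on simulated data. Alternatives were the pseudocount, the filter, the scaling, the variance model, array weights, limma-voom on recovered reads (added after the data were seen) and leaving out each animal.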

Additional observations from a re-analysis of the deposited data

Results flagged for a closer look

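In a group of 5 or 6 animals, a value was singled out where its gap to the nearest other animal was a large share of the whole range of the group. Of 16 groups (8 genes in 2 genetic types), 6 held such a value, always the highest animal, where chance flags about 1 in 20 groups of normal values, and where 7.89% of the 23750 groups of all tested genes held such a value. The genes share the same animals, so these 6 are not independent. In IBxDU-402, SCD was at 119 RPKM, with 35.8 RPKM in the nearest IBxDU animal, and ME1 was at 5.06 RPKM, with 1.59 RPKM in the nearest. In IB-323, SCD was at 115 RPKM (nearest 33.7 RPKM), FASN at 42.2 RPKM (nearest 17.4 RPKM) and ACLY at 15.2 RPKM (nearest 7.28 RPKM). In IB-504, ACSS2 was at 33.2 RPKM, with 25.4 RPKM in the nearest IB animal.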

How the results depend on the processing

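No paired analysis was possible because the animal numbers are not shared between the genetic types. Under all 20 alternatives to each fit, 0 of the 8 genes passed an adjusted p of 0.05. ELOVL6, ACACA, ACLY and ACSS2 kept their direction in all 20, with ranges of 0.26 to 1.30, 0.33 to 0.75, 0.04 to 0.48 and -0.60 to -0.39 in that order when 1 animal was left out, the first 3 lowest without IBxDU-402. With array weights, the log2 fold changes turned to -0.21 for SCD, -0.19 for FASN and -0.31 for ME1, and FADS2 was at -0.0062 after the median-of-ratios scaling. Leaving out 1 animal at a time gave -0.42 to 1.28 for SCD, -0.27 to 0.54 for FASN, -0.34 to 0.50 for ME1 and -0.070 to 0.23 for FADS2, each lowest without IBxDU-402. The cause was not tested. ACSS2 was at an unadjusted p under 0.05 in 19 of 21 fits, with 0.0601 without IBxDU-426 and 0.0513 without IB-504, so the count of the 8 at that threshold was 0 to 1 when 1 animal was left out. Past an unadjusted p of 0.01 and a fold of 1.5 there was 1 gene (ACSS2) after the upper quartile and the median-of-ratios scaling, and 0 to 1 when 1 animal was left out (1 without IBxDU-412). Over all tested genes, 2 passed the adjusted threshold, 1 after either scaling, without the mean trend or with limma-voom, and 1 to 2 when 1 animal was left out. The 179 genes past the unadjusted p and fold became 102 to 387 when 1 animal was left out, the lowest without IBxDU-429 and the highest without IBxDU-412, and 273 were past them when IBxDU-402 was the animal left out. In the 7 lower animals, r turned to -0.015 for ELOVL6 and FASN and to -0.038 for ACACA and ACLY after the upper quartile scaling, and to 0.055 for ELOVL6 and ACLY within the genetic types, where ELOVL6 and ACACA had an adjusted exact p of 0.0648. ELOVL6 rests on 4 to 128 reads per animal and the other 7 genes on at least 37 reads.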
